A study of Homo sapiens with 12 samples.

Results

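The response of U-87 MG cells with a control hairpin to temozolomide (TMZ) was described on 6 expression arrays, of the 12 arrays measured in the study. U-87 MG is an established human glioma line. The 6 arrays are those whose labels name the control short hairpin RNA (shControl), and they form 2 groups of 3 arrays. The cells of 1 group had received 100 uM TMZ, and those of the other the vehicle DMSO (dose 0). Both groups were collected at 16 h. The hairpin was stably transfected and all 6 samples carry it, so neither group represents unmodified U-87 cells, and the labels do not say whether the line is a clone or a pool. The other 6 arrays hold the same treatments in cells with a hairpin against p105 (shp105), the NFKB1 product from which the NF-kB subunit p50 is cut. They are used here for the estimate of the spread and for a test of whether the response differed between the lines. Replicates are called biological in the labels, without word of separate cultures or transfections. The p-values therefore cover the spread between these arrays, which may be partly technical.

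TMZ is an alkylating prodrug that is given against glioblastoma. It methylates DNA bases, and the methyl group on the oxygen of guanine is removed by the enzyme MGMT. Where it is not removed, mismatch repair acts on the mispaired base after replication, and strand breaks and checkpoint signalling follow. The kinases ATM and ATR stabilise the transcription factor p53, which activates genes for cell cycle arrest, repair and death, and also MDM2, the ligase that marks p53 itself for degradation.

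Each value is a log2 expression level, so a difference of 1 is a 2-fold change. Each of 19775 genes was read through its brightest probe set and tested with limma, and a gene is called where its Benjamini-Hochberg adjusted p over all genes is under 0.05. Every group mean rests on n = 3 arrays. Array medians were 5.06 with DMSO and 5.06 with TMZ, and the 6 arrays correlated across genes at 0.997 to 0.998 between groups and at 0.998 within them. Control probe sets for sequences that are absent from the cells read 2.33 to 4.30. The hybridization spike-ins report on hybridization and scanning and not on the cells. They averaged 10.63 (SD 0.05) with DMSO and 10.95 (SD 0.09) with TMZ, a difference of 0.32 with no overlap between the groups. The 3' minus 5' signal of GAPDH was higher by 0.05 with TMZ and that of ACTB lower, with a difference of -0.17. Each of these 3 values had an exact permutation p of 0.1 (2-sided), the smallest that 3 against 3 arrays can give. The treatment and these technical values moved together, and their part in the results was not tested beyond the fit with the spike-in level that is given with the stability of the calls.

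Markers of the labelled cell type were mixed. The mesenchymal intermediate filament VIM stood at 14.80 with DMSO, and all 25 measured markers of mesenchymal glioma lay above the highest absent-sequence control. The dimmest of them, IL4R at 4.42 and CHI3L1 at 4.71 with DMSO, lay just above that control and under the array median. Of 11 astrocyte and glial markers 9 lay above the highest control. Among them were the gap junction protein GJA1 at 10.78, the glutamine synthetase GLUL at 10.00, SOX9 at 9.52 and the glutamate transporter SLC1A3 at 8.33. The astrocyte filament GFAP stood at 5.05, close to the array median, while S100B at 3.50 and the water channel AQP4 at 3.23 lay in the range of the absent-sequence controls. At or under the highest of those controls were 12 of 20 proneural and neural stem cell markers, 8 of 17 leukocyte, 8 of 12 endothelial, 6 of 17 epithelial and 4 of 16 neuron and oligodendrocyte markers. Of the last list, the myelin enzyme CNP stood at 9.74 and the synaptic protein SNAP25 at 8.82. The other 9 of 17 leukocyte markers lay above the highest control, with CSF1R at 6.88. Passing that control therefore does not by itself mark a cell type. None of the 7 marker lists had a called member, where 0.369% of all genes were called. Also uncalled was NFKB1, at 7.40, 7.23 and 7.34 with DMSO and at 7.50, 7.45 and 7.30 with TMZ (adjusted p = 0.669, limma). MGMT read 3.67, 3.62 and 3.71 with DMSO and 3.56, 3.07 and 3.52 with TMZ, all within the range of the absent-sequence controls.

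After 16 h of TMZ, 73 of 19775 genes were called (0.369%), 50 of them higher (0.253%) and 23 lower (0.116%). The changes were small. GDF15 was the only gene past 2-fold, 14 higher and 5 lower genes passed 1.5-fold, and the other 54 called genes lay between 1.20-fold and 1.5-fold. In all 73 the 3 TMZ arrays lay wholly to one side of the 3 DMSO arrays. That alone is common, since 9.21% of all genes did so in the higher and 11.1% in the lower direction. At an unadjusted p under 0.05 there were 2180 genes. The 50 higher genes averaged 7.99, 7.93 and 7.98 on the DMSO arrays and 8.44, 8.48 and 8.46 on the TMZ arrays. The 23 lower genes averaged 8.95, 8.90 and 8.90 with DMSO and 8.49, 8.49 and 8.50 with TMZ. Both sets were called on these same arrays, so the separation of their averages follows from the choice of genes.

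**Figure D1:**
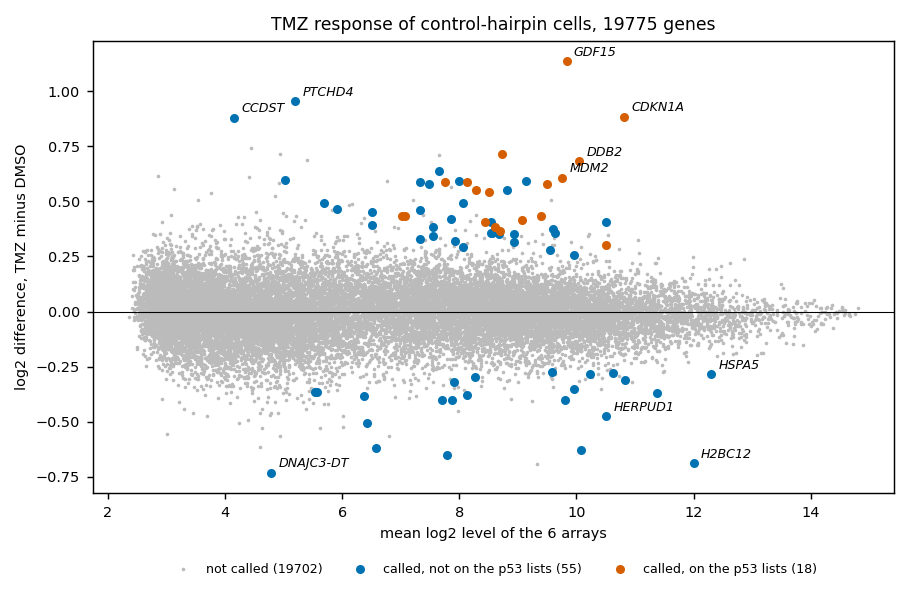
Log2 difference (TMZ minus DMSO) of each of 19775 genes against its mean log2 level over the 6 control-hairpin arrays. Grey points were not called, orange points are the 18 called genes of the p53 lists and blue points the other 55 called genes. GDF15 stands highest at 1.14 and DNAJC3-DT lowest at -0.73.

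Genes on 5 lists of p53 regulators and targets made up 18 of the 50 higher genes. The other 32 were on none of these 5 lists, and whether p53 acts on them was not tested. The 5 lists hold 118 measured genes, of which 18 were higher, 0 lower and 100 not called, or 15.3% called against 0.369% of all genes. Their median difference was 0.11, against 0.00 for all genes, and 85 of the 118 stood above 0. These lists were assembled with earlier results of these data known, so the count is not independent evidence of their direction.

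Among regulators of p53, 3 of 11 rose and 0 fell. MDM2 read 9.47, 9.51 and 9.39 with DMSO and 10.02, 10.14 and 10.04 with TMZ. The TMZ arrays were all higher, by 0.61 (SE 0.07, 1.52-fold, limma adjusted p = 0.00579), and all 10 of its probe sets pointed the same way. TP53INP1, a stress-induced cofactor of p53, read 8.32, 8.30 and 8.49 with DMSO and 9.06, 9.08 and 9.12 with TMZ, a rise of 0.72 (SE 0.10). Its 2 dimmer probe sets differed by -0.05 and 0.02, and the mean of the 3 was 0.23 and not called. TRIAP1, a small p53-induced inhibitor of apoptosis, rose by 0.30 (SE 0.05, adjusted p = 0.0268). PPM1D, the phosphatase that switches the damage signal off, stood 0.37 higher and was not called (adjusted p = 0.108). CCNG1, a bright p53 target at 12.37, 12.43 and 12.29 with DMSO, read 12.58, 12.56 and 12.58 with TMZ and was not called (0.21, adjusted p = 0.155).

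Of 18 p53 targets for arrest and growth control, 5 were higher and 0 lower. GDF15, a secreted stress cytokine of the TGF-beta family, read 9.32, 9.24 and 9.22 with DMSO and 10.35, 10.53 and 10.31 with TMZ. The groups lay more than 1 log2 unit apart on average, at 1.14 (SE 0.07, 2.20-fold, limma adjusted p = 4.47e-05). CDKN1A, which encodes the cyclin-dependent kinase inhibitor p21, read 10.38, 10.30 and 10.42 and then 11.30, 11.24 and 11.22, an increase of 0.88 (SE 0.06, 1.85-fold, limma adjusted p = 4.47e-05). SESN1, a stress-induced inhibitor of mTORC1, was tightly grouped at 7.82, 7.84 and 7.82 with DMSO and at 8.42, 8.42 and 8.41 with TMZ, an increase of 0.59 (SE 0.06). The polo-like kinase PLK2 went from 8.29, 8.24 and 8.19 to 8.77, 8.81 and 8.77, an increase of 0.54 (SE 0.05). PHLDA3, an inhibitor of AKT signalling, was higher by 0.38 (SE 0.06, adjusted p = 0.0212). In none of these 5 genes did the groups overlap, which holds for all 73 called genes. GADD45A, a classic damage-induced gene, stood 0.13 higher and was not called (adjusted p = 0.389).

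**Figure D2:**
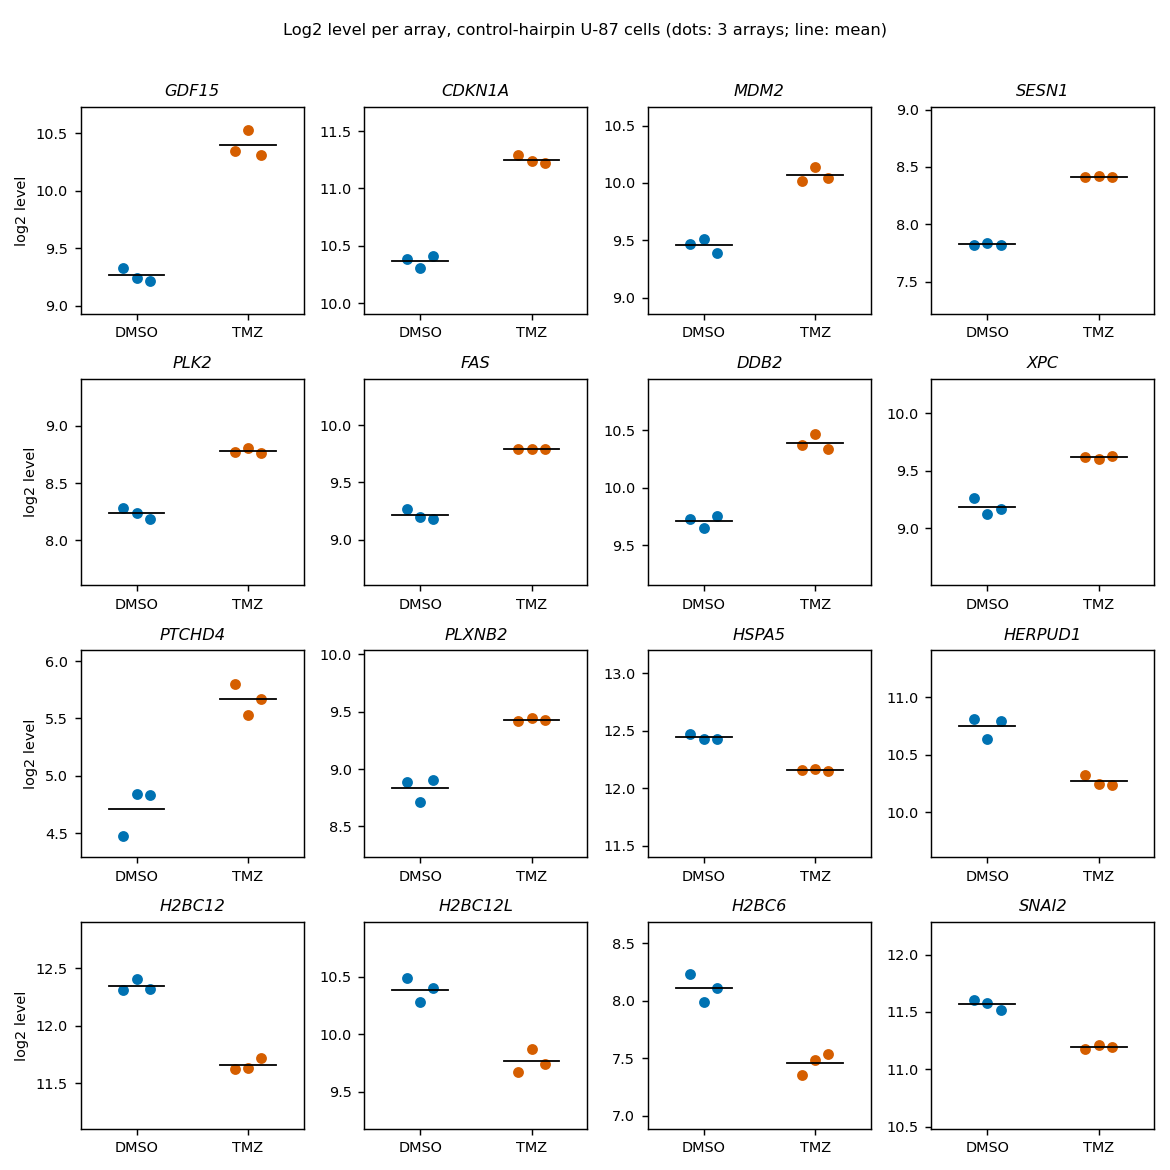
Log2 level of 16 genes on each array of control-hairpin U-87 cells with DMSO (blue) and TMZ (orange). Dots are arrays, lines are means, and every panel spans 1.8 log2 units. The first 10 genes were called higher and the last 6 lower, and in each the 3 TMZ arrays lie apart from the 3 DMSO arrays.

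Of 25 p53 targets with a role in cell death, 4 rose and 0 fell. FAS, a death receptor of the TNF receptor family, read 9.27, 9.20 and 9.18 with DMSO and 9.79, 9.79 and 9.80 with TMZ. All 5 of its probe sets were higher, and the brightest rose by 0.58 (SE 0.06, 1.49-fold, limma adjusted p = 0.00183). TP53I3, an oxidoreductase linked to oxidative stress, read 7.46, 7.38 and 7.52 and then 7.97, 8.17 and 7.99, a rise of 0.59 (SE 0.07). AEN, a p53-induced nuclease, rose by 0.42 (SE 0.06). BAX, which permeabilises the outer mitochondrial membrane, read 6.87, 6.83 and 6.84 and then 7.31, 7.26 and 7.27. Its rise of 0.43 (SE 0.08) passed narrowly, at an adjusted p of 0.0494, and the call was lost whichever shControl array was left out.

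BAX was the only called gene of 16 in the BCL2 family, whose median was -0.02. The BH3-only gene PMAIP1 stood 0.34 higher (adjusted p = 0.232) and the survival gene BCL2L1 0.22 higher (adjusted p = 0.283). MCL1, another survival gene, stood at -0.07 (adjusted p = 0.645). TNFRSF10B, a receptor for the ligand TRAIL, differed by 0.14 (adjusted p = 0.420). Of 15 caspases and inhibitors of apoptosis 0 were called, where 0.369% of all genes were called. The called death genes therefore comprised 1 receptor, 1 pore-forming protein, 1 oxidoreductase and 1 nuclease.

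In nucleotide excision repair the 2 called genes, both higher, were damage recognition factors. This pathway cuts out bulky or distorting lesions, and DDB2 and XPC find them. DDB2 read 9.73, 9.65 and 9.75 with DMSO and 10.37, 10.47 and 10.34 with TMZ, an increase of 0.68 (SE 0.06, 1.61-fold, limma adjusted p = 0.000338). XPC read 9.26, 9.12 and 9.17 and then 9.62, 9.60 and 9.63, an increase of 0.43 (SE 0.05, 1.35-fold). Both TMZ groups lay above every DMSO array, as in every gene called higher. The pathway had 18 measured genes with a median of -0.01, of which 11.1% were called against 0.369% of all genes. Both called genes are also p53 targets. Of the 11 p53 targets for repair and nucleotide supply, they were again the 2 called. The translesion polymerase POLH stood 0.39 higher (adjusted p = 0.155) and RRM2B, a p53-induced subunit of ribonucleotide reductase, 0.32 higher (adjusted p = 0.252).

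Other repair lists had 1 called gene at most, where 0.369% of all genes were called. In base excision repair, which removes small base lesions such as N-methylpurines, NEIL3 was the called gene of 19. This glycosylase rose by 0.35 (SE 0.06, adjusted p = 0.0441). In homologous recombination and the Fanconi pathway, which repair broken and cross-linked DNA, the helicase BLM was the called gene of 25, with a rise of 0.29 (SE 0.05, adjusted p = 0.0389). That list had a median of 0.10, and 12 of its 25 genes were higher without overlap of the groups. This was 48%, against 9.21% of all genes and 19.2% of all listed genes. No member was called of 10 measured genes of direct reversal and mismatch repair, where MSH6, a mismatch recognition subunit, had the smallest p (-0.17, adjusted p = 0.228). Nor was any of 21 genes of ATM, ATR and checkpoint signalling, with the checkpoint kinase CHEK2 at 0.21 (adjusted p = 0.137).

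Genes of the cell cycle engine were not called lower. Of 44 replication genes 1 was called (2.27%, against 0.369% of all genes), GINS4, a subunit of the replicative helicase complex, which read 7.87, 7.76 and 7.82 with DMSO and 8.32, 8.30 and 8.31 with TMZ. It rose by 0.49 (SE 0.07, limma adjusted p = 0.0106). Its 4 probe sets all pointed up, 1 of them by only 0.009, and their mean of 0.23 was not called. The replication list had a median of 0.04, with 11 genes higher (25%) and 8 lower (18.2%) without overlap, against 9.21% and 11.1% of all genes. Over all listed genes those shares were 19.2% and 16.3%. Of 51 genes of mitosis and G2/M 1 was called, the kinetochore kinesin CENPE, which read 9.47, 9.42 and 9.47 and then 9.79, 9.84 and 9.80, a rise of 0.36 (SE 0.05).

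Most mitosis genes stood slightly above 0, 47 of 51. The median difference was 0.13, and 41 were higher without overlap between the groups while 1 was lower. Over all genes those shares were 9.21% and 11.1%, and over all listed genes 19.2% and 16.3%. The number called ran from 0, with any 1 shControl array left out, to 14 of 51 with trend and robust fitting. CDC25C, the phosphatase that activates CDK1, read 7.38, 7.24 and 7.41 with DMSO and 7.63, 7.83 and 7.74 with TMZ (0.39, adjusted p = 0.0531). CENPF, a kinetochore protein, stood 0.24 higher (adjusted p = 0.0997). Both CDC25C and CENPF were named after their values were seen. In bulk RNA, more cells in a phase and more RNA per cell cannot be told apart.

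**Figure D3:**
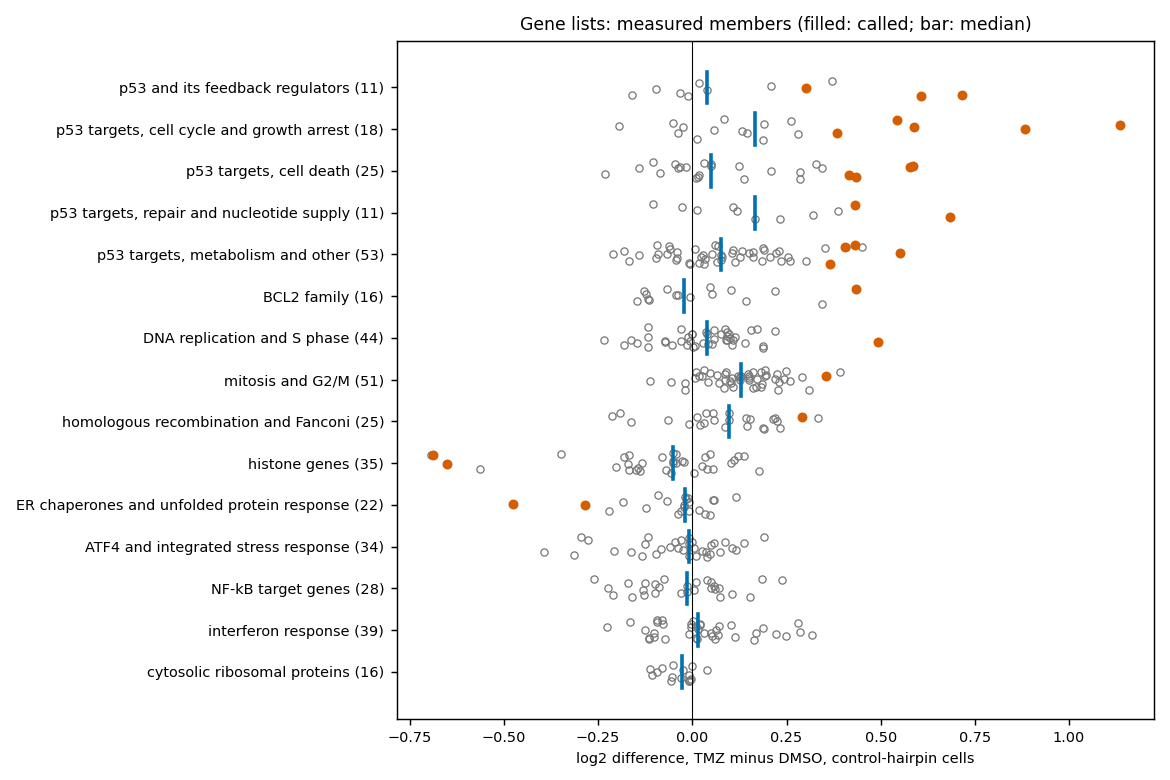
Log2 difference (TMZ minus DMSO) of each measured member of 15 gene lists in control-hairpin cells, with the number of members in brackets. Filled orange points were called, open points were not, and the blue bar is the list's median. Called members of the 5 p53 lists all lie above 0, the called histone and endoplasmic reticulum genes below 0, and the median of the mitosis list is 0.13.

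The list of other p53 targets had 4 of 53 genes higher and 0 lower. HSPA4L, a chaperone of the HSP110 family, read 7.98 to 8.04 with DMSO and 8.52, 8.60 and 8.56 with TMZ, a rise of 0.55 (SE 0.06, limma adjusted p = 0.00208). The diacylglycerol kinase DGKA rose by 0.43 (SE 0.07), the decapping factor DCP1B by 0.40 (SE 0.05) and TGFA, a ligand of the EGF receptor, by 0.36 (SE 0.06). The metabolic phosphatase TIGAR stood 0.26 higher (adjusted p = 0.185).

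Of the 50 higher genes, 26 were on none of the 56 lists. The largest change among them was that of PTCHD4, a protein related to the Hedgehog receptor Patched, which read 4.47, 4.84 and 4.83 with DMSO and 5.80, 5.53 and 5.67 with TMZ. It rose by 0.95 (SE 0.13, 1.94-fold, limma adjusted p = 0.0106) from a level below the array median. The noncoding RNA CCDST read 3.71, 3.56 and 3.86 and then 4.63, 4.58 and 4.57, a rise of 0.88 (SE 0.14). Its DMSO values lie within the range of the absent-sequence controls and its TMZ values above it, so the size starts from background.

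PLXNB2, a semaphorin receptor, rose from 8.89, 8.71 and 8.91 to 9.42, 9.45 and 9.43, by 0.59 (SE 0.07, limma adjusted p = 0.00613). S1PR3, a receptor for sphingosine-1-phosphate, was higher by 0.64 (SE 0.09) on its bright probe set, and its dimmer one stood at -0.13. With probe sets averaged, S1PR3 stood at 0.25 and PLXNB2 at 0.40, and neither was called. TSGA10 (0.60), the mitochondrial alanyl-tRNA synthetase AARS2 (0.59) and SUGCT (0.59) completed the higher genes on no list that the naming rule takes. As a mean of its probe sets TSGA10 stood at 0.16 and was not called. ACTA2, smooth muscle actin, was the called gene of 22 in the actin and SRF list (4.55%, against 0.369% of all genes). It read 8.56, 8.50 and 8.58 and then 9.04, 9.08 and 9.15, a rise of 0.55 (SE 0.06). Only 1 of its 3 probe sets was above the absent-sequence controls, and the mean of the 3 was 0.19 and not called. By RefSeq (assembly GRCh38.p14) the loci of ACTA2 and FAS overlap, and they were the only pair of neighbouring genes among the 73 in which both were called. FBN2, a fibrillin of elastic fibres, was the called gene of 38 in the extracellular matrix list (2.63%, against 0.369% of all genes). It rose by 0.39 (limma adjusted p = 0.0402). The mean of its probe sets was 0.16 and not called.

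In 300-base promoters from RefSeq (250 bases before and 50 after the gene start, build GRCh38.p14), a pair of p53 half-site cores was searched on both strands, as CATG, any 6 bases and CATG. It was found in 0.392% of 27305 promoters in the table, in 0.267% of 15382 promoters of tested genes, in 2 of 42 promoters of higher genes and in 0 of 16 of lower genes. The 2 genes were TRIAP1 and PLXNB2. Their stretches are shown because they carry this pair, whose cores are in capitals. That of TRIAP1 lies at chr12:120446335-120446360 on the minus strand, from base 25 to base 50 after the start. That of PLXNB2 lies at chr22:50301820-50301919 on the minus strand, from 250 to 151 bases before the start.
TRIAP1: ggggaggCATGcacggaCATGaagcg
PLXNB2: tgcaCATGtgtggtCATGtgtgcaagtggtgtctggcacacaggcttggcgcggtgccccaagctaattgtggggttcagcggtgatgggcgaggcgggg
A match is a description of the letters and not of binding, and sites outside these windows were not searched. An E2F motif, TTTGGCGC or TTTCCCGC on either strand, was in 3 of 42 promoters of higher genes (MDM2, AEN and XPC) against 2.99% of promoters of tested genes. The CHR element of cell cycle promoters, TTTGAA, was in 8 of 42 (19%) against 11.9%, and the NF-Y box CCAAT in 15 of 42 (35.7%) against 36.1%.

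Histone H2B genes gave 3 of the 4 largest decreases among the 23 lower genes. H2B is one of the 4 core histones, and replication-dependent histone messages are made mainly in S phase. H2BC12 read 12.31, 12.41 and 12.32 with DMSO and 11.62, 11.63 and 11.72 with TMZ. All TMZ arrays were lower, by a difference of -0.69 (SE 0.06, 1.61-fold down, limma adjusted p = 0.000338). H2BC12L, a near-identical copy that stood on no list, read 10.49, 10.28 and 10.40 and then 9.68, 9.87 and 9.74 (-0.63, SE 0.07, 1.54-fold down). H2BC6 read 8.23, 7.99 and 8.11 and then 7.36, 7.49 and 7.54 (-0.65, SE 0.11, 1.57-fold down, limma adjusted p = 0.0289). Their probe sets can read each other's messages, so which H2B gene fell is uncertain.

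Of 35 measured histone genes 2 were called lower and 0 higher, or 5.71% called against 0.116% of all genes called lower. The median was -0.05, and 8 genes were lower without overlap (22.9%, against 11.1% of all genes and 16.3% of all listed genes). H2BC5 at -0.69 (adjusted p = 0.0997), H2BC4 at -0.56 (adjusted p = 0.164) and the linker histone H1-2 at -0.35 (adjusted p = 0.0531) were named after their values were seen. None of these 3 was called, although their groups did not overlap. The octamer ATTTGCAT, a known element of H2B promoters that was chosen after the called genes were seen, was found in 1.51% of promoters of tested genes and in those of H2BC12 and H2BC6, the 2 of 16 promoters of lower genes that held it. The stretches below show it in capitals, together with CCAAT boxes or their reverse complement ATTGG. H2BC12 is at chr6:27146859-27147108 on the minus strand and H2BC6 at chr6:26183611-26183760 on the plus strand.
H2BC12: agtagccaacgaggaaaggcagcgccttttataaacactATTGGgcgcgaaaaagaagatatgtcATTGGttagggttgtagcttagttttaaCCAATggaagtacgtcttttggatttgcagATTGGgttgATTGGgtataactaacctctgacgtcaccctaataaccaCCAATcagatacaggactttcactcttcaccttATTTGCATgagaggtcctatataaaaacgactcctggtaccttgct
H2BC6: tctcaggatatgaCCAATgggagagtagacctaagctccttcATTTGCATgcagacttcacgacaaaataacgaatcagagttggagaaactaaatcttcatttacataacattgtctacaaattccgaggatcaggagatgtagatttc

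Of 22 genes for endoplasmic reticulum chaperones and the unfolded protein response, 2 were lower and 0 higher, or 9.09% called against 0.116% of all genes called lower. HSPA5, the chaperone BiP, was one of the brightest called genes and read 12.47, 12.42 and 12.43 with DMSO and 12.15, 12.17 and 12.15 with TMZ. The difference was -0.28 (SE 0.05, 1.22-fold down, limma adjusted p = 0.0277), and the second probe set stood at -0.15. HERPUD1, a component of endoplasmic reticulum-associated degradation, read 10.81, 10.63 and 10.79 and then 10.32, 10.25 and 10.24 (-0.48, SE 0.07, 1.39-fold down). Its dim second probe set stood at 0.06, and the mean of the pair was -0.21 and not called. The list's median was -0.02, and 20 of the 22 were not called. Lower without overlap were 5 genes (22.7%, against 11.1% of all genes and 16.3% of all listed genes). With 1 shControl array left out, HSPA5 kept its call in 0 and HERPUD1 in 1 of the 6 fits.

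HSPA5 was the one of 16 lower genes with a promoter in the table that held an ER stress element, searched on both strands as CCAAT, any 9 bases and CCACG, and chosen after the called genes were seen. The element was in 0.104% of promoters of tested genes. The stretch at chr9:125241344-125241593 on the minus strand, the 250 bases before the start, is shown because it holds that element, with CCAAT boxes, ATTGG and the CCACG of the element in capitals.
HSPA5: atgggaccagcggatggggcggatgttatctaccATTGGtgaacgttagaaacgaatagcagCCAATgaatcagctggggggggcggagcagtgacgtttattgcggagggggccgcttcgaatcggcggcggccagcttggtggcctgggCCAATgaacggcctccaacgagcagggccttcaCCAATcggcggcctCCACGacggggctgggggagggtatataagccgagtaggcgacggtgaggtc
CCAAT on either strand was in 8 of 16 promoters of lower genes (50%) against 36.1% of promoters of tested genes.

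The integrated stress response, in which translation is slowed and ATF4 activates genes of amino acid supply, had 0 called genes of 34. Of all genes 0.369% were called, so a list of this size can have none. DDIT4, an inhibitor of mTORC1, read 10.21, 10.19 and 10.19 with DMSO and 9.92, 9.98 and 9.76 with TMZ (-0.31, adjusted p = 0.0533). DDIT3, the transcription factor CHOP, read 9.72, 9.73 and 9.70 and then 9.40, 9.50 and 9.37 (-0.30, adjusted p = 0.0711). Both stood lower without overlap and neither was called. Of the 34 genes 9 were lower without overlap (26.5%, against 11.1% of all genes and 16.3% of all listed genes). Other lists had larger shares, such as cytosolic ribosomal proteins (43.8%) and the respiratory chain (34.6%). The median of the 34 was -0.01. The number called lower reached 4 with trend and robust fitting, 4 with dim genes left out and 3 with array weights. In shp105 cells 6 of the 34 were called higher, with a median of 0.15.

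The largest decrease was that of a dim noncoding RNA. DNAJC3-DT read 5.15, 5.03 and 5.27 with DMSO and 4.36, 4.44 and 4.46 with TMZ (-0.73, SE 0.12, 1.66-fold down, limma adjusted p = 0.0268). DNAJC3, its neighbour and the gene of an endoplasmic reticulum cochaperone, was looked up after the call and differed by -0.02 (adjusted p = 0.944). LINC01004 (-0.50), LINC01003 (-0.40) and LINC01355 (-0.38) were also lower. The difference of LINC01355 turned to 0.01 when its probe sets were averaged. In all, 4 of 2657 long noncoding RNAs were lower and 2 higher (0.151% and 0.0753%, against 0.116% and 0.253% of all genes).

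Other lower genes had varied roles. SNAI2, the transcription factor SLUG of mesenchymal programmes, read 11.60, 11.58 and 11.52 with DMSO and 11.18, 11.21 and 11.20 with TMZ (-0.37, SE 0.06, limma adjusted p = 0.0212). DEPP1, a FOXO-induced gene, stood at -0.62 (SE 0.10), and at -0.35 and not called as a mean of its probe sets. GPC6, a heparan sulfate proteoglycan of the cell surface, IFITM10 and the AMPA receptor auxiliary subunit CNIH3 fell by 0.40, 0.40 and 0.38. The scaffold protein GRIP1 and the growth factor FGF18 each fell by 0.36. BHLHE41, a repressor of the circadian clock, fell by 0.28 and was the called gene of 18 in that list (5.56%, against 0.369% of all genes). With probe sets averaged, GPC6 stood at -0.25, CNIH3 at -0.17, FGF18 at -0.11, GRIP1 at -0.10 and BHLHE41 at -0.09. None of these, nor IFITM10, was then called.

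With 0.369% of all genes called, a short list often has no call, and 0 calls does not mean no response. Of the 56 lists, 37 had no called member. Among them were NF-kB target genes (28 measured), interferon response (39), heat shock proteins (12), NRF2 targets and glutathione (24), cholesterol synthesis (19), hypoxia and glycolysis (32), the respiratory chain (26), immediate early genes (26) and cytosolic ribosomal proteins (16). Of the NF-kB targets, PLAU, the urokinase gene, had the smallest p and read 12.76, 12.69 and 12.77 with DMSO and 12.97, 13.02 and 12.94 with TMZ (0.24, adjusted p = 0.0701). MYC stood at -0.25 (adjusted p = 0.191) and VEGFA at -0.21 (adjusted p = 0.204). MHC class I and antigen presentation had 18 of 22 genes above 0 and a median of 0.09. Without overlap 9 were higher (40.9%, against 9.21% of all genes and 19.2% of all listed genes). The member of this list with the smallest p, the peptide transporter TAP1, read 8.28, 8.16 and 8.11 and then 8.42, 8.43 and 8.33 (0.21, adjusted p = 0.186).

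Called genes were spread unevenly over gene length and level. With genes split evenly into short, middle and long by their RefSeq length, 0.167% of the 6579 short genes (38 to 12962 bases) were higher and 0.198% lower. Of the 6578 middle genes (12968 to 46576 bases), 0.274% were higher and 0.0608% lower. Of the 6578 long genes (46596 to 2473620 bases), 0.319% were higher and 0.0912% lower. These are shares without a test. With an even split by mean level, 2 higher and 0 lower genes fell among the 6592 dimmest and 28 higher and 13 lower genes among the 6592 brightest.

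The called genes that the naming rule does not take are given by name after their values were seen. Higher were C18orf54, CBX5, CLN8, CSMD3, DDIAS, EVI2A, FCGRT, FST, IDH2, IL7R, IP6K2, LCAT, LINC00513, NEURL1B, OSBPL3, PLXNA2, PRKCH, RTTN and STOM. CSMD3 rose by 0.58 and LCAT, a cholesterol-esterifying enzyme of plasma, by 0.49, while OSBPL3 rose by 0.26. FST, which binds activin, rose by 0.42 and CBX5, the heterochromatin protein HP1 alpha, by 0.28. Lower were CPEB2, HNRNPH3, PAN3, SYNCRIP, TMEM39B and ZMIZ1. Their differences ran from -0.35 for CPEB2 to -0.27 for HNRNPH3, and all 6 lost their call whichever shControl array was left out.

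Fewer genes were called whichever shControl array was left out. All 73 genes kept their direction each time, and their standard errors grew by a median factor of 1.14 to 1.17. With 1 shControl array left out, the total of 73 became 29 (DMSO replicate 1), 16 (DMSO replicate 2), 20 (DMSO replicate 3), 24 (TMZ replicate 1), 16 (TMZ replicate 2) or 19 (TMZ replicate 3). Called in all 6 of these fits were 14 of the 73 genes. They were GDF15, CDKN1A, DDB2, MDM2, PLXNB2, SESN1, TP53I3, FAS, HSPA4L, ACTA2, PLK2 and XPC, all higher, and H2BC12L and H2BC12, both lower. On the p53 lists were 10 of these 14. The p53 lists together kept 10 to 15 calls in those fits, the histone list 1, and the endoplasmic reticulum list 0 or 1. PTCHD4 kept its call in 4 of the 6 fits, TP53INP1 and AEN in 3 each, and GINS4 and HERPUD1 in 1 each. With 1 shp105 array left out, 48 to 76 genes were called.

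When the spike-in level entered the limma model, 0 genes passed, with 1150 at an unadjusted p under 0.05. Over the 73 genes the median size of the change was 0.41 without and 0.41 with that term, while standard errors grew by a factor of 1.80. All 73 kept their direction, 71 had an unadjusted p under 0.05, and the smallest adjusted p over all genes was 0.0586. The spike-in level itself separates the 2 groups of shControl arrays without overlap.

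**Figure D4:**
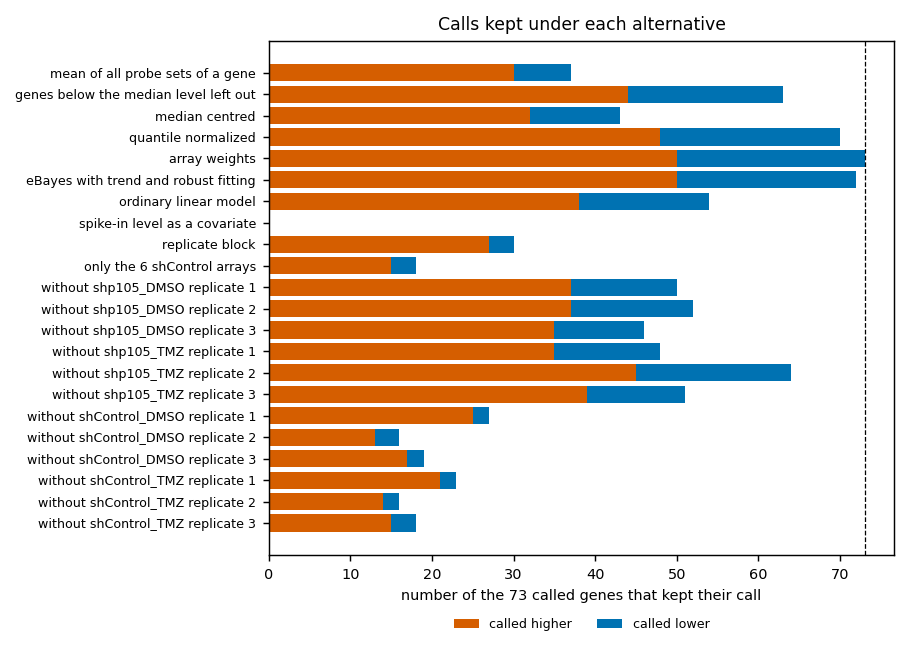
Number of the 73 called genes that were also called under each alternative, split into higher (orange) and lower (blue). The dashed line marks 73. Leaving out any shControl array left 16 to 27 of them, and the spike-in covariate left 0.

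The response of shp105 cells, measured on the other 6 arrays, tells which calls recur in arrays that share none with the shControl response. The spike-ins there read 11.20, 11.01 and 11.17 with DMSO and 11.43, 11.36 and 11.18 with TMZ. They overlapped but leaned the same way as in shControl cells, and their part in the recurrence was not tested. There 171 genes were called (0.865%), 128 higher (0.647%) and 43 lower (0.217%). Of the 50 genes higher in shControl cells 35 were also called higher in shp105 cells, and 48 had the same sign, with median differences of 0.43 in shControl and 0.41 in shp105 cells. Of the 23 lower genes 6 were also called lower and 21 had the same sign, with medians of -0.38 and -0.23. The fit estimates one spread over all 12 arrays, so the tests are not wholly separate. CDKN1A rose by 0.92 in shp105 cells beside 0.88 in shControl cells, DDB2 by 0.65 beside 0.68, SESN1 by 0.67 beside 0.59 and FAS by 0.62 beside 0.58. PLXNB2 rose by 0.61 beside 0.59 and XPC by 0.45 beside 0.43. Of the lower genes, H2BC12 differed by -0.49 beside -0.69 and SNAI2 by -0.39 beside -0.37. H2BC12L (-0.29, limma adjusted p = 0.0901) and H2BC6 (-0.25, limma adjusted p = 0.279) were not called in shp105 cells. The H2B genes were also dimmer there. With DMSO, H2BC12 averaged 9.68 in shp105 and 12.35 in shControl cells, H2BC12L 7.56 and 10.39, and H2BC6 5.96 and 8.11.

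**Figure D5:**
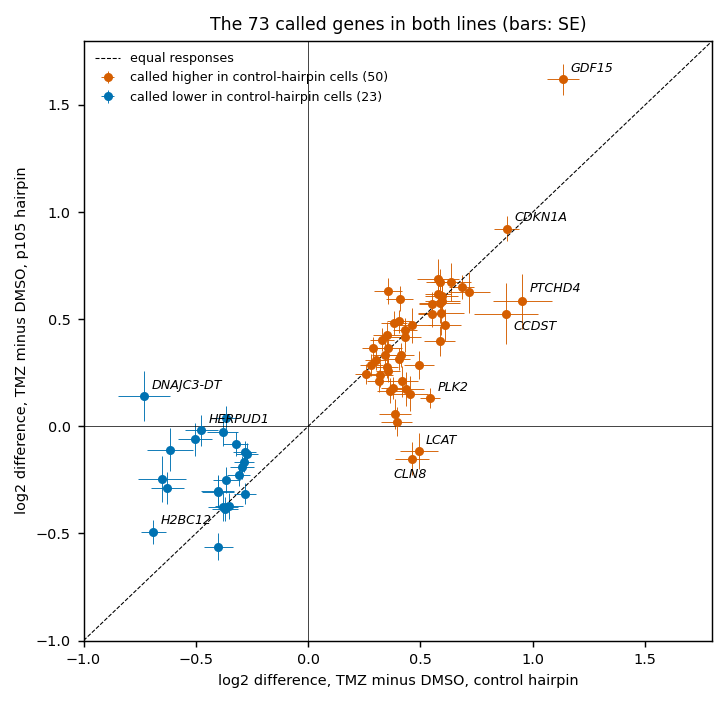
Log2 difference (TMZ minus DMSO) of the 73 called genes in control-hairpin cells (horizontal) and in cells with the p105 hairpin (vertical), with bars of 1 standard error. Orange genes were called higher and blue genes lower in control-hairpin cells, and the dashed line marks equal responses. Of the 50 higher genes 48 lie above 0 on the vertical axis, and PLK2 lies at 0.13.

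A test of the difference between the lines called 0 of 19775 genes with limma, at a smallest adjusted p of 0.104 and with 1266 genes at an unadjusted p under 0.05. The same test called 8 genes with dim genes left out, 12 with trend and robust fitting and 1, PLK2, with an ordinary linear model. PLK2 in shp105 cells read 8.73, 8.74 and 8.76 with DMSO and 8.86, 8.88 and 8.89 with TMZ, a difference of 0.13 against 0.54 in shControl cells. The shControl TMZ arrays reached the level that shp105 cells already had with DMSO. The difference of the responses was 0.41 (SE 0.07, adjusted p = 0.138).

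DDIT4 and DDIT3 stood lower with TMZ in shControl cells and higher in shp105 cells. DDIT4 in shp105 cells read 10.14, 10.13 and 10.16 with DMSO and 10.38, 10.46 and 10.44 with TMZ, a difference of 0.28 (adjusted p = 0.0524). The difference of its responses was -0.59 (SE 0.08, adjusted p = 0.104). For DDIT3 it was -0.56 (SE 0.08, adjusted p = 0.136), from -0.30 in shControl and 0.27 in shp105 cells. Both passed with dim genes left out and with trend and robust fitting.

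The other genes with the smallest p for the difference, PNLIPRP3, LINC00520 and GCNT3, were near 0 in shControl cells at -0.08, 0.05 and -0.04, and differed by 0.50, 0.58 and 0.46 in shp105 cells. Adjusted p for the difference was 0.104, 0.104 and 0.138. GDF15 rose by 1.14 in shControl and by 1.62 in shp105 cells, with a difference of -0.49 (SE 0.10, adjusted p = 0.381). HERPUD1 differed by -0.48 in shControl and by -0.02 in shp105 cells (difference -0.46, SE 0.10, adjusted p = 0.438). DNAJC3-DT fell by 0.73 in shControl cells and stood at 0.14 in shp105 cells. None of these differences of response was called with default eBayes settings over all genes. PNLIPRP3, LINC00520 and GCNT3 passed with dim genes left out and with trend and robust fitting. GDF15 and HERPUD1 passed with trend and robust fitting (adjusted p = 0.0204 each).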

How the data were processed

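The deposited table holds log2 levels of 54675 probe sets on 12 arrays. RMA and Affymetrix Power Tools were used by the authors, per the submitters' processing notes, without versions. The sources used here state neither genome build nor probe annotation release. Of the probe sets, 41097 had 1 gene symbol, 1801 had several and 11777 had none, by GEO's platform annotation updated through RefSeq (GRCh38.p14). The probe set with the highest mean over the 12 arrays stood for a gene.

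Group means were fitted over all 12 arrays with limma 3.58.1 (lmFit, eBayes) in R 4.3.3. No set test was run, and lists are described by counts and medians. The members and lists were chosen with earlier results of these data known. The 56 lists hold 1320 genes, 1198 of them measured. Named are the 15 called genes of largest increase and of largest decrease, up to 5 called members per list, the member of smallest p of a list without a call, any member of the p53 lists and BCL2 family, and NFKB1, MGMT, MDM2 and CDKN1A. For the difference of the responses the 5 genes of smallest p are given. Cell type markers are named as a check of the label, and other genes outside the rule are named as chosen after their values were seen. Standard errors come from the fit. Replicate numbers did not pair the samples. The number of arrays limits the precision. The fit was tested on simulated data. Figures were drawn with matplotlib 3.10.9.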

Additional observations from a re-analysis of the deposited data

How the results depend on the processing

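Under the alternatives the total of 73 called genes, with its higher and lower parts, became 45 (37 and 8) when the probe sets of each gene were averaged, 291 (147 and 144) with genes below the median level left out, 43 (32 and 11) after median centring, 99 (66 and 33) after quantile normalization, 149 (85 and 64) with array weights, 358 (158 and 200) with trend and robust fitting, 115 (74 and 41) with an ordinary linear model, 0 (0 and 0) with the spike-in covariate and 19 (15 and 4) with only the 6 shControl arrays. Each probe set tested on its own gave 62 (54 and 8), an adjusted p under 0.01 gave 15 (13 and 2) and a fold of at least 1.5 gave 19 (14 and 5). With 1 of the 12 arrays left out the totals ran from 16 to 76, with 13 to 47 higher and 2 to 29 lower, and the difference of the responses had 0 calls each time. That difference had 8 calls with dim genes left out, 12 with trend and robust fitting and 1 with an ordinary linear model. Deviations of same-numbered samples correlated at 0.06, -0.11 and 0.10, and with the replicate number as a block 30 genes were called (27 and 3). LINC01355 turned from -0.38 to 0.014 with the mean of its probe sets, and the cause was not tested. All other 72 called genes kept their direction in each of the 22 alternatives that tested them. The 5 p53 lists together had 10 to 31 higher members except with the spike-in covariate, where they had 0. With dim genes left out, 63 of the 73 were tested and called. Their standard errors had a median ratio of 0.89 to those of the main fit. Fewer genes also share the adjustment, and the part of each in the higher total was not tested. Dim genes limit the sizes stated, since differences near the absent-sequence controls are compressed.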
